A study of Rattus norvegicus with 10 samples.

Results

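The difference between the effects of the lyp locus on 2 rat backgrounds was read from RNA of pancreatic islets. It is the JBlyp/lyp minus JB difference, less the F344lyp minus F344 difference, and is called here the JB effect minus the F344 effect. The comparison used 8 of the 10 Affymetrix arrays, 2 per group, and 31042 of 31099 probe sets, leaving out the 57 array controls. JB rats are described in the labels as diabetes resistant but inducible and as carrying no lyp mutation. JBlyp/lyp rats are labelled diabetes prone and homozygous for the mutation. F344 and F344lyp rats are both labelled healthy controls, and the zygosity of the F344lyp group is given only in the study's design text, as F344lyp/lyp. All animals were 40 days old. The protocols describe islets from fasted male animals, isolated by collagenase and a density gradient, although the list of animals in that protocol names neither JB group. The remaining pair of arrays, DR+/+, is a further BB line without the mutation and entered the model for the estimate of spread alone. Replicates are labelled as biological, yet pooling of islets from several animals is neither stated nor denied, and each p-value reflects how far these few arrays scattered.

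As background, lyp is a mutation of Gimap5, a GTPase of the immunity-associated protein family, and it leaves BB rats with few circulating T cells. On a BB background this lymphopenia goes with spontaneous autoimmune loss of the beta cells, while rats of the F344 background that carry the mutation are lymphopenic without diabetes. Islets taken by collagenase digestion carry along some of the surrounding exocrine tissue, that is acinar cells, which make digestive enzymes, and duct cells, together with vessels, nerves and immune cells.

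The islet identity was plain on all 8 arrays. The insulin gene Ins1 lay between 14.12 and 14.27 and Ins2 between 13.54 and 13.98 on the log2 intensity scale, where the largest value on any array was 14.37. The glucagon gene Gcg lay between 12.95 and 13.74. The differences between the lyp effects were 0.19 ± 0.17 (SE) for Ins1, 0.22 ± 0.18 for Ins2, 0.11 ± 0.24 for Gcg, 0.49 ± 0.25 for the somatostatin gene Sst and -0.28 ± 0.43 for the pancreatic polypeptide gene Ppy, and none of the 5 passed the test (adjusted p from 0.724 to 0.954, limma). A level near the top of the scale has little room to rise. Of the 31 measured beta cell markers, 0 were called and 0 had an unadjusted p under 0.05, and their median difference was 0.10, beside -0.02 over all 14217 genes.

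Gimap5 itself checks the labels only in part, since the mutation need not lower its RNA and what its probe set covers was not examined. Its level was 7.05 and 5.95 in JB, 5.95 and 5.65 in JBlyp/lyp, 7.03 and 6.82 in F344, and 5.96 and 6.02 in F344lyp. Both F344lyp arrays were below both F344 arrays. On the JB side replicate 2 of JB lay next to the JBlyp/lyp arrays, so that pair of groups is hardly apart. The lyp difference was -0.70 in JB and -0.93 in F344, the difference between them was 0.23 ± 0.41 (SE), and none of these passed the limma test (adjusted p = 0.785, 0.158 and 0.941). Without JB replicate 2 the difference between the effects turned to -0.32. The other measured family members, Gimap1, Gimap4, Gimap6 and Gimap7, gave differences between 0.11 and 0.52, and 0 of the 5 was called, at an unadjusted p under 0.05 as well.

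Among 31042 probe sets, 88 (0.283%) had lyp effects that differed between the backgrounds at a Benjamini-Hochberg adjusted p under 0.05 in limma, and 2369 had an unadjusted p under 0.05. In 79 of the 88 the JB effect lay below the F344 effect (0.254%), and in 9 above it (0.029%). With each gene represented by its brightest probe set, 68 of 14217 genes were called (0.478%), 61 below (0.429%) and 7 above (0.0492%). All of the 61 had a lyp estimate above 0 in F344, with a median of 1.98 on the log2 scale, against -0.15 in JB. All of the 7 had one below 0 in F344, with a median of -1.30, against 0.24 in JB. For each of the 68 the 4 pairwise lyp differences in JB did not overlap the 4 in F344, which held for 3056 of the 14217 genes (21.5%).

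Sorted by which side of the difference passed a test of its own, 84 of the 88 probe sets (66 of the 68 genes) were called for lyp in F344 and not in JB. In 4 neither side was called, and in 0 was lyp called in JB alone, in opposite directions, or on both in the same direction. The lyp effect was called for 468 probe sets in F344 (1.51%, of which 349 or 1.12% higher and 119 or 0.383% lower in F344lyp) and for 1 in JB (0.00322% of probe sets, and 0.00703% of genes), with 4835 and 1935 at an unadjusted p under 0.05. The sorting reuses the arrays of the difference itself and is a description. A missing call in JB does not show that lyp left a gene alone there: the 95% interval of the JB effect included 0 in 50 of the 68 genes. In all 68 that interval excluded the F344 estimate. Selection by a called difference makes this nearly certain, so it is a description and no separate support.

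**Figure D1:**
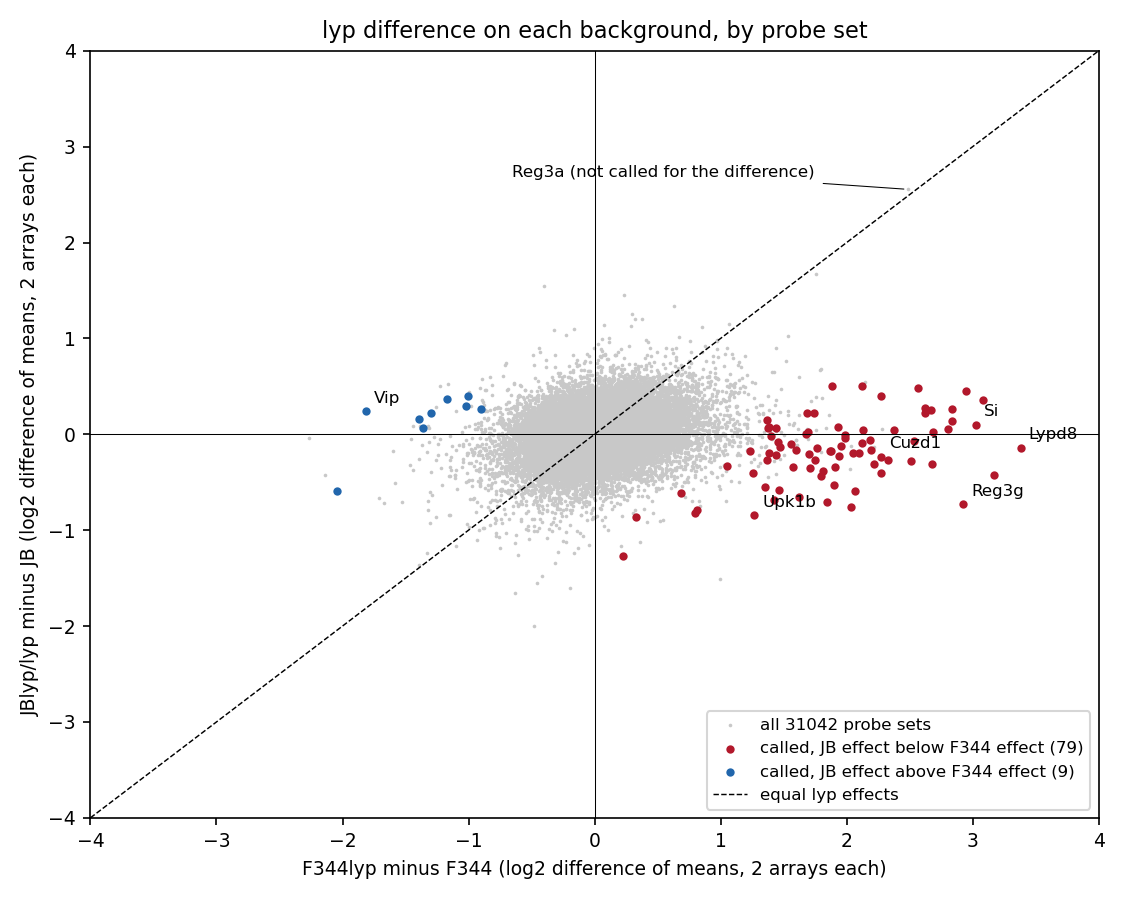
Each point is 1 of 31042 probe sets, with the F344lyp minus F344 log2 difference on the horizontal axis and the JBlyp/lyp minus JB log2 difference on the vertical axis. The 79 red points lie right of 0 and spread around 0 vertically, the 9 blue points lie left of 0, and Reg3a sits on the dashed line of equal effects with 2.49 in F344 and 2.55 in JB.

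The arrays set JB and F344 apart in precision. The median size of the difference between the 2 replicate arrays, over probe sets, was 0.209 in JB, 0.218 in JBlyp/lyp, 0.110 in F344 and 0.174 in F344lyp. Replicate 1 of JB correlated more closely with replicate 1 of JBlyp/lyp (r = 0.991 over probe sets) than with replicate 2 of JB (0.985). Replicate 2 of JB likewise stood closer to replicate 2 of JBlyp/lyp (0.992). The labels give no litter, day or batch that these numbers could stand for. The gap between the 3 prime and 5 prime Gapdh controls, a sign of RNA quality, was 3.71 and 3.31 in JB, 2.75 and 2.97 in JBlyp/lyp, 2.43 and 2.35 in F344 and 2.20 and 2.19 in F344lyp. It was smaller with lyp on both backgrounds, and its part in the calls was not tested beyond a fit with the gap as a covariate, which called 7 probe sets, all 7 of them among the 88. The median size of the 88 estimates was 1.91 in that fit and 2.04 without the covariate.

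The promoters of 3 called genes are given here, those of an enzyme of the intestinal brush border, a mast cell protease and a neuropeptide. Each runs 5′ to 3′ on the gene's own strand from 250 bases before to 50 bases after the start, taken from RefSeq on build GRCr8. Si, sucrase-isomaltase, lies at chr2:159884853-159885152 on the minus strand, Cpa3, the carboxypeptidase of mast cell granules, at chr2:104673188-104673487 on the minus strand, and Vip, vasoactive intestinal peptide, at chr1:44470230-44470529 on the plus strand. Capitals mark matches, on either strand, to the motifs searched: TTTATG, a form bound by caudal homeobox proteins (CATAAA is the same motif read from the other strand), AGATAA, bound by GATA factors, and TGACG, part of the cAMP response element. No motif contains another.
Si: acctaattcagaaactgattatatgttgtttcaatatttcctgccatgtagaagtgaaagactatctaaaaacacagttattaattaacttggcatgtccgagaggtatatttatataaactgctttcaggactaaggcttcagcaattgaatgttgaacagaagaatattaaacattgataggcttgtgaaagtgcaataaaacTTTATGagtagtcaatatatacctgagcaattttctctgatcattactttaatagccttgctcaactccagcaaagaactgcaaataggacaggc
Cpa3: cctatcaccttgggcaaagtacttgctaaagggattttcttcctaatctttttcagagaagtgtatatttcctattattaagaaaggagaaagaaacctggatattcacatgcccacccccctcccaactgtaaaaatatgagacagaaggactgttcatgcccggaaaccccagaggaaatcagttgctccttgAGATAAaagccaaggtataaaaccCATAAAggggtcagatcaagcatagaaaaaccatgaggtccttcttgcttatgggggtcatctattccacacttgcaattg
Vip: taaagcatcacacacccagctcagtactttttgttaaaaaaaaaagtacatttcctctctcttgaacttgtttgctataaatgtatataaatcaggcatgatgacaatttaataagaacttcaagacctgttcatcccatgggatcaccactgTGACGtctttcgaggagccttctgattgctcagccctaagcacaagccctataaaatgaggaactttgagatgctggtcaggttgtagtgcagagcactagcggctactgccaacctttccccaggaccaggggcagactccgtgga
Of the 68 called genes, 58 matched a promoter. AGATAA stood in 12 of the 58 (20.7%) against 11.3% of 27457 promoters of the same length. CACCTG, a form of the E-box bound by the acinar complex of Ptf1a, stood in 18 (31.0%) against 18.7%. TTTATG stood in 7 (12.1% against 12.5%) and TGACG in 11 (19.0% against 22.0%). Si and Cpa3, both higher in F344lyp, each hold TTTATG once, and Cpa3 also holds AGATAA, while Vip, lower there, holds TGACG. A match to these letters is a description of the window and no evidence of binding.

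Reg3g had the largest difference between the backgrounds. It encodes an antibacterial lectin secreted by intestinal epithelium and by the injured exocrine pancreas. Its level was 4.91 and 4.86 in JB, 4.26 and 4.05 in JBlyp/lyp, 5.47 and 5.17 in F344, and 8.16 and 8.33 in F344lyp. The F344lyp arrays stood far above every other array, and the JBlyp/lyp arrays were the lowest of all. The lyp effect was -0.73 in JB (95% interval -1.08 to -0.38, adjusted p = 0.353) and 2.92 in F344, a 7.57-fold rise. The difference of -3.65 ± 0.22 (SE) was called (adjusted p = 0.000317, limma).

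Its relatives did not follow. Reg3a rose with lyp on both backgrounds, from 4.47 and 4.79 to 7.45 and 6.92 in JB and from 10.28 and 9.84 to 12.39 and 12.70 in F344, which is 2.55 (adjusted p = 0.018) and 2.49 (adjusted p = 0.001) in limma. The 2 effects differed by 0.07, and Reg3a was the 1 probe set called for lyp in JB. Reg1a gave 1.67 in JB and 1.75 in F344, and Reg3b 1.15 and 1.06. Both were called for lyp in F344 and not in JB, with differences between the effects of -0.08 and 0.08. The regenerating genes are secreted lectins that are induced in exocrine pancreas and islets under stress or inflammation. Of the 4 measured, 1 was called for the difference.

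Genes of the intestinal epithelium made up another group. Si digests dietary sugars at the brush border. Its level was 3.15 and 2.92 in JB, 3.22 and 3.04 in JBlyp/lyp, 2.88 and 2.90 in F344, and 5.84 and 5.99 in F344lyp. The 6 arrays outside F344lyp lay within a narrow low range, and the F344lyp pair stood alone above them. The rise in F344 was 8.15-fold, the JB effect was 0.10 (95% interval -0.22 to 0.42), and the difference was -2.93 ± 0.20 (SE, adjusted p = 0.000579, limma). Lypd8, which is outside the list used below, a membrane-anchored protein of the colon that holds flagellated bacteria off, had the highest fold in F344, at 10.4. Its level went from 4.44 and 4.16 in F344 to 7.73 and 7.63 in F344lyp, beside 3.92 and 3.47 in JB and 3.57 and 3.54 in JBlyp/lyp. The F344lyp pair was again apart from all others, and the difference was -3.52 ± 0.24 (SE, adjusted p = 0.000579).

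Of 27 measured genes of the intestinal list, 6 were called (22.2%, beside 0.478% of all genes). All 6 had the JB effect below the F344 effect: Si, Lgals4, Ggt1, Apoa1, Anpep and Muc2. Lgals4, a lectin of gut epithelial cells, was at 5.20 and 5.14 in F344 and at 7.51 and 7.57 in F344lyp, with a JB effect of 0.05 and a difference of -2.32 ± 0.20 (SE). Apoa1, the main protein of high-density lipoprotein, made by liver and gut, rose from 3.77 and 3.64 to 6.00 and 5.95, against 3.92 and 4.34 in JB and 4.71 and 4.34 in JBlyp/lyp. Its JB effect was 0.40 with a 95% interval from -0.00045 to 0.80. Ggt1, a glutathione-cleaving enzyme of brush borders and exocrine cells, differed by -2.02 ± 0.28. The caudal homeobox genes Cdx1 and Cdx2, which define intestinal epithelium, were at 3.65 and 4.86 in F344lyp and at 3.88 and 4.86 in F344, and the fatty-acid binding genes Fabp1 and Fabp2 at 4.53 and 3.95 in F344lyp. None of these 4 was called for the difference. The list's median difference was -0.44, from 0.01 in JB and 0.51 in F344, and its mean level was 4.97 and 4.92 in F344, 5.77 and 5.81 in F344lyp and between 4.64 and 4.75 in both JB groups. The part of other cells in this group was not tested beyond a fit with the acinar level as a covariate, given below. Without any 1 of the F344 or F344lyp arrays there were 2 calls, and without JB replicate 2 there were 4.

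Acinar genes were the list with the lowest median difference, -1.08, beside -0.02 over all genes. The median lyp effect over the 35 measured was -0.19 in JB and 0.73 in F344, and 34 of the 35 differences lay below 0. Called were 6 (17.1%, beside 0.478% of all genes): Ptf1a, Ang, Cuzd1, Tff2, Spink1l and Dmbt1. Ptf1a, the transcription factor that specifies acinar cells, was at 5.19 and 4.68 in JB, 4.41 and 4.90 in JBlyp/lyp, 6.16 and 6.26 in F344, and 8.67 and 8.77 in F344lyp. The JB groups overlapped and the F344 groups did not. Its JB effect was -0.28 (95% interval -0.79 to 0.23), the F344 rise was 5.69-fold, and the difference was -2.79 ± 0.32 (SE, adjusted p = 0.008, limma).

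Cuzd1, a membrane protein of the zymogen granule, was at 6.41 and 6.15 in JB, 5.95 and 6.15 in JBlyp/lyp, 9.68 and 9.46 in F344, and 11.67 and 12.01 in F344lyp. F344 already stood far above both JB groups, and the lyp effect was a further 2.27 there against -0.23 in JB. Ang, a secreted ribonuclease, went from 7.41 and 6.95 to 9.94 and 10.08 in F344, against 4.69 and 4.14 in JB and 4.71 and 4.64 in JBlyp/lyp. Tff2, a mucus-stabilising trefoil peptide, went from 10.22 and 10.02 to 12.06 and 12.37, against 8.40 and 8.28 in JB and 8.36 and 7.94 in JBlyp/lyp. In each of these genes both F344lyp arrays were the highest of all 8 and the JB groups lay close together. The differences were -2.50 ± 0.24 (SE) for Cuzd1, -2.57 ± 0.31 for Ang and -2.29 ± 0.25 for Tff2, with adjusted p of 0.003, 0.011 and 0.006 in limma. Acinar calls fell from 6 to 3 when F344 replicate 1 was left out, to 2 when F344lyp replicate 1 was, and to 1 when replicate 2 of either F344 group was. They numbered 4 without JB replicate 1 and 11 when JBlyp/lyp replicate 1 was left out.

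The abundant digestive enzymes moved less. When the 35 were split by mean level over the 10 arrays, the upper 17 had a median level of 13.3 in F344 (12.6 to 13.8), a median difference of -0.58 and 0 called (3 at an unadjusted p under 0.05). The lower 18 had a median level of 9.69, a median difference of -1.72 and all 6 calls. The trypsinogen Prss1 was at 13.80 in F344 and 13.91 in F344lyp and gave -0.05, and the amylase Amy2a3 gave -0.26. The highest value on any array was 14.37, so the genes at the top of this list had little room to rise, and a smaller change in them cannot be told apart from the limit of the scale.

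**Figure D2:**
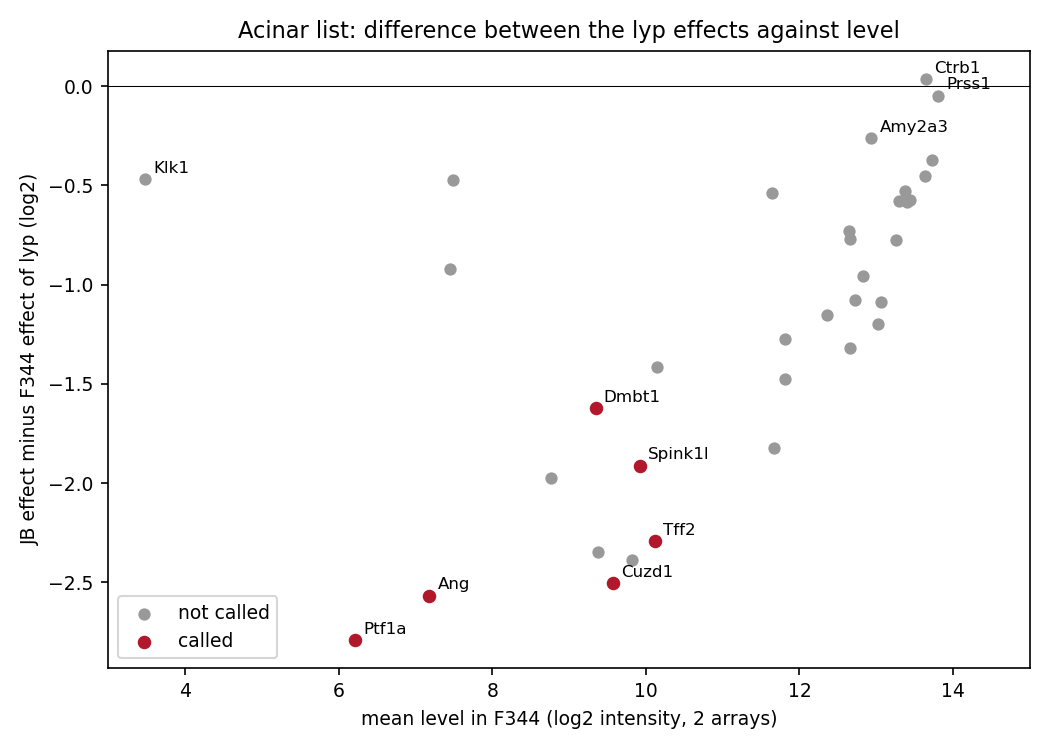
Each point is 1 of 35 acinar genes, with its mean log2 level in F344 on the horizontal axis and the JB effect minus the F344 effect (log2) on the vertical axis. The 6 called genes in red lie between levels 6.21 and 10.1, and the 4 brightest genes lie between -0.45 and 0.04.

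The acinar list as a whole was higher on the F344 background and higher again with lyp on it. Its mean level was 9.64 and 9.35 in JB, 9.57 and 9.08 in JBlyp/lyp, 11.3 and 11.1 in F344, and 12.1 and 12.3 in F344lyp. The list was higher in both F344lyp arrays than in both F344 arrays, while the JB groups overlapped. In bulk RNA more acinar cells in a preparation and more RNA of these genes per cell cannot be told apart. With this mean level of each array as a covariate, limma called 0 probe sets for the difference, against 4377 at an unadjusted p under 0.05. The 88 estimates kept their sign, and the median of their sizes went from 2.04 to 1.65.

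**Figure D3:**
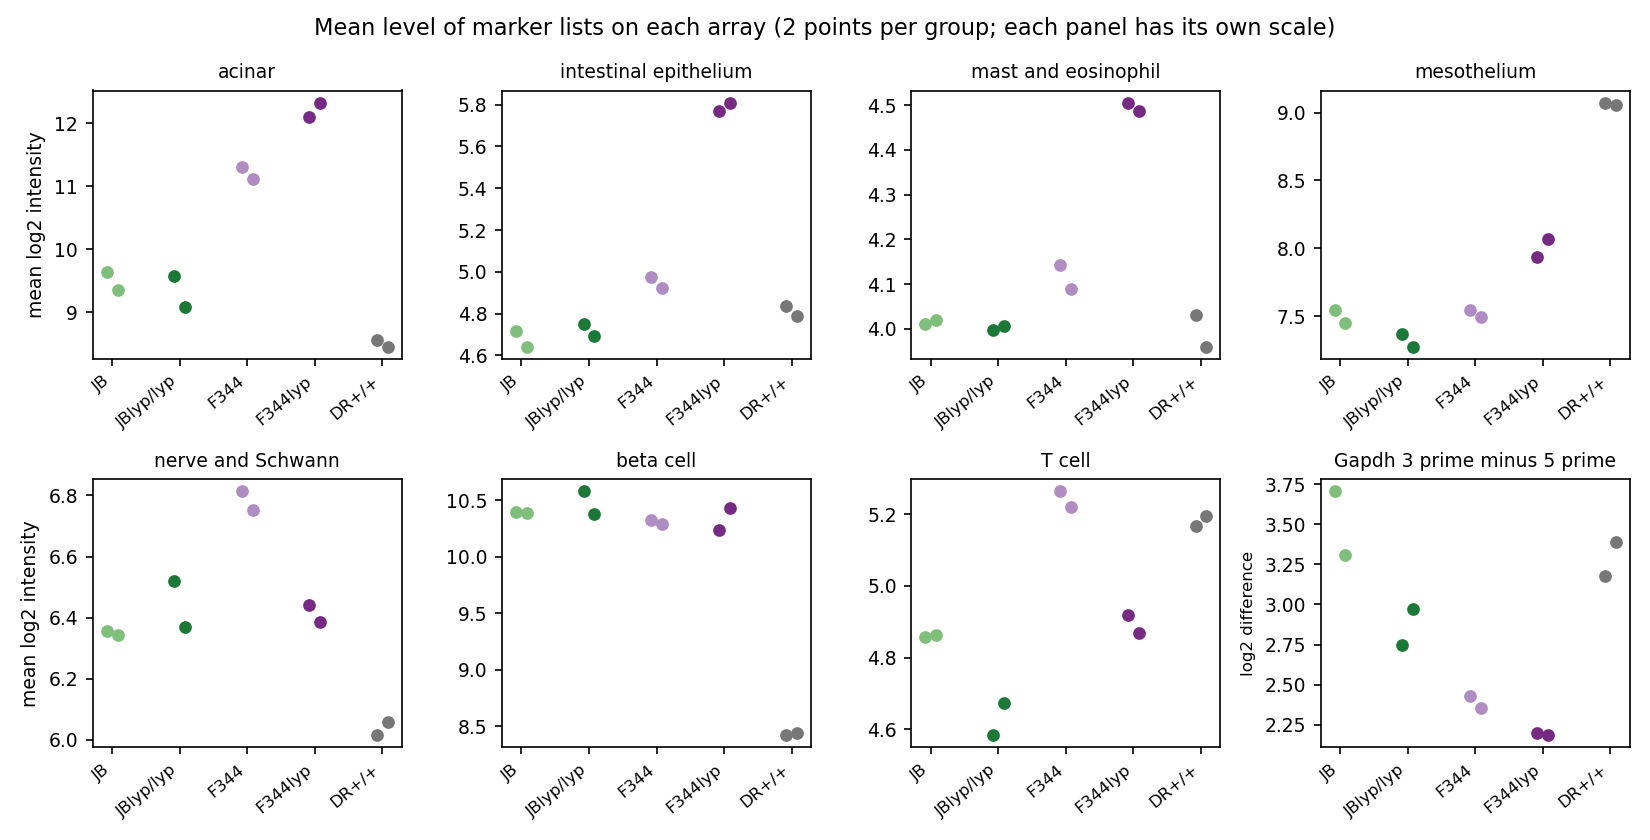
Mean log2 level of 7 marker lists and the Gapdh 3 prime minus 5 prime gap on each array, 2 points per group, with a separate scale for each panel. The acinar, intestinal and mast cell lists are highest in the F344lyp pair, the nerve list is highest in the F344 pair at 6.81 and 6.75, and DR+/+ has the highest mesothelial level.

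Some mast cell proteases rose in F344lyp. Cma1, mast cell chymase, was at 4.67 and 4.79 in JB, 5.06 and 4.84 in JBlyp/lyp, 5.08 and 4.75 in F344, and 7.46 and 7.62 in F344lyp. Mcpt1l1, a related protease, was at 3.40 and 3.91, 4.22 and 4.0, 4.78 and 4.92, and 7.56 and 8.03 in the same order. Cpa3 was at 5.03 and 5.26, 5.06 and 5.32, 5.46 and 5.28, and 7.40 and 7.59. In all 3 the F344lyp pair lay clear of every other array of the comparison, and the JB effects were between 0.05 and 0.46. The differences were -2.40 ± 0.26 (SE), -2.49 ± 0.32 and -2.08 ± 0.26, with adjusted p of 0.006, 0.014 and 0.012 in limma.

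These 3 were the called members among 21 measured mast cell and eosinophil genes (14.3%, beside 0.478% of all genes). An unadjusted p under 0.05 in limma was found for 6 of the 21 (28.6%), beside 8.68% of all genes. The list's median difference was -0.03, near that of all genes, with 12 differences below 0 and 9 above. The tryptase gene Tpsab1 differed by -1.15 without passing (adjusted p = 0.08). The stem cell factor receptor Kit was at 3.24, 3.17, 3.29 and 3.32 in JB, JBlyp/lyp, F344 and F344lyp, and Ms4a2, a chain of the IgE receptor, at 3.92, 3.92, 3.70 and 3.61. Neither showed the step seen in the 3 called proteases, and both are at the low end of the intensity scale. Fcer1a, another chain of the IgE receptor, was lower still, at 2.66 in F344 and 3.16 in F344lyp. It differed by -0.54, in the direction of the proteases, without passing (adjusted p = 0.465, limma). Apart from Tpsab1, the other protease genes measured were not called for lyp in F344. Their effects there were 0.30 for Tpsb2, 0.16 for Mcpt9, -0.03 for Mcpt10, -0.10 for Mcpt8, -0.11 for Mcpt1 and -0.18 for Mcpt4. The 3 calls fell to 1 without F344 replicate 1, to 0 without F344 replicate 2 or F344lyp replicate 2 and to 2 without F344lyp replicate 1.

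Some genes of nerve fibres went the other way. Vip was at 7.69 and 7.93 in JB, 8.21 and 7.89 in JBlyp/lyp, 9.51 and 9.55 in F344, and 7.72 and 7.70 in F344lyp. The F344 pair was the one apart, and F344lyp lay at the level of the JB groups. The lyp effect was -1.82 in F344 and 0.24 in JB (95% interval -0.10 to 0.58), and the difference of 2.05 ± 0.21 (SE) was called (adjusted p = 0.005, limma). Prph, peripherin, an intermediate filament of peripheral neurons, went from 8.97 and 9.03 in F344 to 7.71 and 7.69 in F344lyp, against 7.26 and 7.10 in JB and 7.57 and 7.23 in JBlyp/lyp. Gap43, a protein of growing axons, went from 8.43 and 8.47 to 7.31 and 7.25, and Nefm, a neurofilament, from 7.03 on both arrays to 5.98 and 6.03. All JB and JBlyp/lyp arrays lay below both F344 arrays in these 3 genes, and the JB effects were 0.22, 0.37 and 0.29.

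Of the 28 measured nerve and Schwann cell genes, 4 were called (14.3%, beside 0.478% of all genes). All 4 had the JB effect above the F344 effect. The list's median difference was 0.27, with 19 differences above 0 and 9 below. By unadjusted p under 0.05 in limma there were 10 (35.7%), beside 8.68% of all genes. For lyp in F344 itself, 6 genes of the list were called lower in F344lyp and 1 higher. The differences were 1.52 ± 0.23 (SE) for Prph, 1.54 ± 0.22 for Gap43 and 1.31 ± 0.21 for Nefm, with adjusted p of 0.035, 0.024 and 0.038 in limma. A second probe set of Gap43 gave -0.06. Stmn2 (1.33) and Nefl (1.39), which are further axonal genes, did not pass. The glial genes Sox10 and S100b gave -0.12 and -0.05. The list's mean level was 6.81 and 6.75 in F344, 6.44 and 6.39 in F344lyp, 6.36 and 6.34 in JB and 6.52 and 6.37 in JBlyp/lyp. The number of calls was 0 without F344 replicate 2 or F344lyp replicate 2, 1 without JB replicate 2, F344 replicate 1 or F344lyp replicate 1, and 2 without JB replicate 1.

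The remaining genes called above 0 were Tgm3, a transglutaminase of epithelia, Scgb1c1, a secretoglobin, and Vamp1, a synaptic vesicle protein; the last pair was named after its values were seen. Tgm3 was at 8.03 and 7.95 in JB, 8.12 and 7.99 in JBlyp/lyp, 8.03 and 7.79 in F344, and 6.72 and 6.38 in F344lyp. Here the F344lyp pair stood below all 6 other arrays, and the difference was 1.42 ± 0.22 (SE, adjusted p = 0.039, limma). Tgm3 lost its call in 16 of 21 alternative fits. Scgb1c1 was lower with lyp on both backgrounds as an estimate, -0.59 in JB and -2.04 in F344. Vamp1 gave 0.40 and -1.01, and 2 other probe sets of it gave 0.50 and -0.08.

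**Figure D4:**
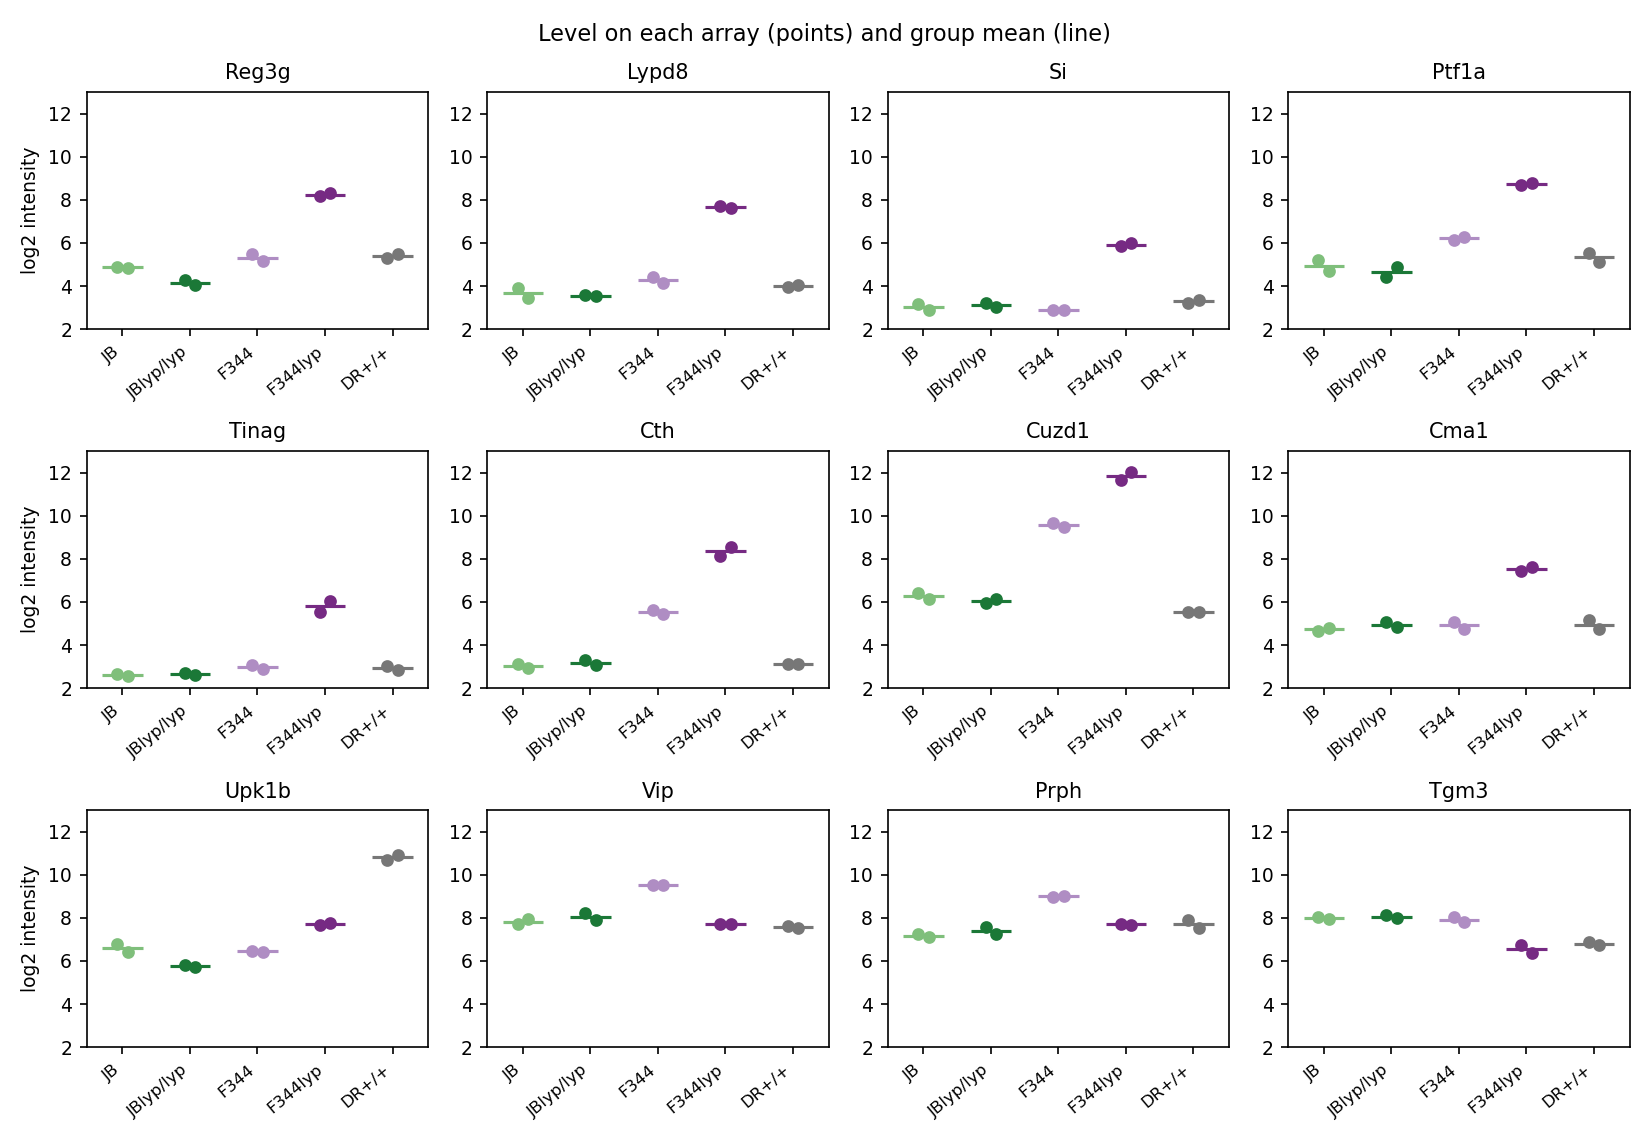
Log2 intensity of 12 named genes on each array, 2 points per group, with a line at the group mean. The F344lyp points are the highest of the 4 compared groups in the first 9 panels, Vip and Prph are highest in F344, Tgm3 is lowest in F344lyp, and Upk1b is highest in DR+/+ at 10.70 and 10.92.

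The called mesothelial genes had lyp estimates below 0 in JB and above 0 in F344. Upk1b, a uroplakin of urothelium and mesothelium, was at 6.80 and 6.40 in JB, 5.81 and 5.70 in JBlyp/lyp, 6.47 and 6.42 in F344, and 7.65 and 7.78 in F344lyp. The JBlyp/lyp arrays were below both JB arrays and the F344lyp arrays above both F344 arrays. The lyp effect was -0.84 in JB (95% interval -1.21 to -0.48, adjusted p = 0.278) and 1.27 in F344 (adjusted p = 0.006), and the difference was -2.11 ± 0.23 (SE, adjusted p = 0.006), all from limma. Lrrn4, a leucine-rich membrane protein, was at 6.57 and 6.51, 6.16 and 6.21, 5.53 and 5.44, and 7.10 and 7.29 in the same order, with effects of -0.35 and 1.71. Its 2 other probe sets gave -0.29 and -0.83 without a call. Of 17 measured mesothelial genes these 2 were called (11.8%, beside 0.478% of all genes). At an unadjusted p under 0.05 in limma there were 7 of the 17 (41.2%), beside 8.68% of all genes. The list's median difference was -0.43, with 14 differences below 0 and 3 above. Wt1, also of this list, gave -1.73 without passing (adjusted p = 0.110, limma). The mesothelin gene Msln was high throughout, at 12.94, 13.04, 12.21 and 12.34, and gave -0.03. The list's mean level was 9.07 and 9.05 in DR+/+, against 7.28 to 8.07 on the arrays compared, so it varied between groups without lyp as well. A single mesothelial gene was called without F344 replicate 1, F344 replicate 2 or F344lyp replicate 2.

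Opposite estimates with a JB effect of at least 0.5 in size were found in 10 of the 68 called genes: Reg3g, Amy1, Aqp12a, Gnmt, Upk1b, Slc39a8, Cfi, Dmbt1, Hspb8 and Tiparp. They were picked by those estimates, so the list is a description, and lyp was called in JB for 0 of them. Dmbt1, a scavenger protein of mucosa and exocrine ducts, went from 8.54 and 8.25 to 7.66 and 7.49 in JB and from 9.40 and 9.29 to 10.03 and 10.25 in F344. Each background kept its 2 groups apart. Tiparp, an ADP-ribosyltransferase induced by the aryl hydrocarbon receptor, went from 8.43 and 8.27 to 7.52 and 7.44 in JB and from 6.61 and 6.49 to 6.90 and 6.86 in F344. Tiparp and Hspb8, a small heat-shock protein, were the 2 genes with no call on either side, with effects of -0.87 and 0.33 for Tiparp and of -0.61 and 0.69 for Hspb8. A second Tiparp probe set differed by -1.52 without a call. Its lyp estimates were below 0 on both backgrounds, -1.996 in JB and -0.48 in F344, so they were not opposite. A second Hspb8 probe set gave -0.40 in JB and 0.07 in F344, and its difference of -0.48 was not called.

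How many genes were placed on the JB background alone depended on how its arrays were compared. Among 14217 genes the lyp estimate was larger in size in JB for 5353, of which 2, Tiparp and Dmbt1, were called for the difference, and larger in F344 for 8864, of which 66 were called. Since JB and JBlyp/lyp arrays of 1 number resembled each other, a fit with the replicate number as a block within those 4 arrays was added after the data were seen. It called 423 probe sets for the difference, among them all 88, and 104 for lyp in JB. By its calls 378 belonged to F344 alone, 23 to JB alone and 4 were opposite. In that fit Upk1b and Dmbt1 were among the 4 opposite ones.

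The genes that the added fit placed in JB alone include Tiparp, Fcmr, a receptor for IgM, Nr4a2, an immediate early nuclear receptor, Gpx2, an epithelial glutathione peroxidase, and the chemokines Ccl21 and Cxcl1, all lower in JBlyp/lyp. Gpx2 gave -1.16 in JB and 0.21 in F344, and Ccl21 gave -1.13 and 0.36 (adjusted p of the difference 0.015 and 0.009 in that fit). Uchl1, a neuronal and endocrine ubiquitin hydrolase, and Ramp3, a receptor partner, were higher in JBlyp/lyp, by 1.03 and 0.90, against -0.23 and -0.44 in F344. None of these but Tiparp was called in the fit without the block. They were named after their values were seen.

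Of the cell stress and growth genes none was called for the difference. The immediate early and stress list, 39 genes, had lyp medians of -0.47 in JB and -0.22 in F344, with 34 and 30 estimates below 0, and 0 called for the difference (8 at an unadjusted p under 0.05). Nr4a2 gave -1.24 and -0.17, and Ier2, a further early response gene, -1.12 and -0.25. The growth gene Myc went from -0.39 in JB to 0.80 in F344 (adjusted p of the difference 0.106, limma). Of 45 cell cycle genes 0 were called, while 12 (26.7%) had an unadjusted p under 0.05, against 1234 of all 14217 genes (8.68%). Their median difference was -0.40, with medians of -0.08 in JB and 0.25 in F344, and 35 of the 45 differences lay below 0. Ccna2, cyclin A2, gave -0.12 and 1.03 (adjusted p of the difference 0.167), and Kif11, a spindle motor, -0.12 and 0.98.

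The study asked how islets of these strains handle oxidative stress. Of 45 antioxidant genes 1 was called for the difference (2.22%, beside 0.478% of all genes). In 9 of the 45 (20%) the unadjusted p in limma was under 0.05, beside 8.68% of all genes. Cth, cystathionine gamma-lyase, makes the cysteine that limits glutathione synthesis. It was at 3.12 and 2.96 in JB, 3.29 and 3.06 in JBlyp/lyp, 5.64 and 5.42 in F344, and 8.15 and 8.57 in F344lyp. The JB groups overlapped at the low end of the scale, F344 lay above them and F344lyp above F344. The rise in F344 was 7.12-fold, the JB effect was 0.14 (95% interval -0.25 to 0.52), and the difference was -2.69 ± 0.24 (SE, adjusted p = 0.002, limma). Cbs, the enzyme before it in the same pathway, gave 0.20 in JB and 1.86 in F344 and did not pass (adjusted p = 0.06), nor did the peroxiredoxin Prdx4, with -0.06 and 1.60. The list's median difference was -0.08, with 25 differences below 0 and 20 above. Of 20 glutathione transferases 0 were called (7 unadjusted), with a median of -0.32. Gstm2 gave -0.01 in JB and 1.13 in F344 (adjusted p of the difference 0.105) and Gstm1 -0.13 and 0.69. The acinar level was higher on the same F344lyp arrays, and its part in these values was not tested beyond a covariate fit. With the acinar level or the Gapdh gap as a covariate Cth was not called. Over 20 alternative fits its difference ran from -2.90 to -1.87.

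No T cell gene passed the test of the difference. Of 41 T cell genes 0 were called for it, while 6 (14.6%) had an unadjusted p under 0.05, beside 8.68% of all genes. These 6 were Thy1, Cd247, Cd8a, Cd96, Il2rb and Cd3d, all with the JB effect above the F344 effect. A lyp estimate below 0 was found for 29 genes in JB and 29 in F344. Called for lyp were 4 in F344, all lower in F344lyp, and 0 in JB. The list's medians were -0.08 and -0.29. Cd3d, a chain of the T cell receptor complex, gave -0.69 in JB and -1.32 in F344, and Cd8a -0.37 and -1.14. Both were called for lyp in F344 and not in JB, and the difference between the effects did not pass for either. Thy1, a marker of T cells and neurons, had the largest difference of the list, 0.96 (adjusted p = 0.167, limma). Of the 100 annotated genes next to Gimap5, 31 had a probe set, and 0 of their 45 probe sets were called for the difference (5 unadjusted). Among them Igf2bp3, an RNA-binding protein of fetal tissue, gave 0.02 in JB and 1.48 in F344 (adjusted p of the difference 0.054), and Gpnmb, a membrane glycoprotein of macrophages, 0.13 and 1.05.

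Other immune and tissue lists held 0 called genes. The chemokine and inflammation list (55 genes, 13 unadjusted) had a median difference of -0.05, the interferon list (39 genes, 3 unadjusted) -0.10, the antigen presentation list (30 genes, 5 unadjusted) -0.01, the macrophage and dendritic list (38 genes, 7 unadjusted) -0.08 and the B cell list (15 genes, 2 unadjusted) -0.11. Endothelial genes (35) gave -0.12, stellate and fibroblast genes (49) -0.16, erythroid genes (11) 0.12 and other endocrine genes (15) -0.18. Of the pathways, endoplasmic reticulum stress (29 genes) gave -0.22, oxidative phosphorylation (46) -0.11, hypoxia and glycolysis (33) 0.07, apoptosis (32) -0.08, the cytosolic ribosome (25) -0.10 and sterol synthesis and uptake (26) -0.11. Unadjusted, between 1 and 13 genes of each of these lists had a p under 0.05. Beside the 8.68% of all genes, this was 26.5% for the stellate and fibroblast list, 23.6% for the chemokine and inflammation list, 22.9% for the endothelial list and 4.35% for oxidative phosphorylation.

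**Figure D5:**
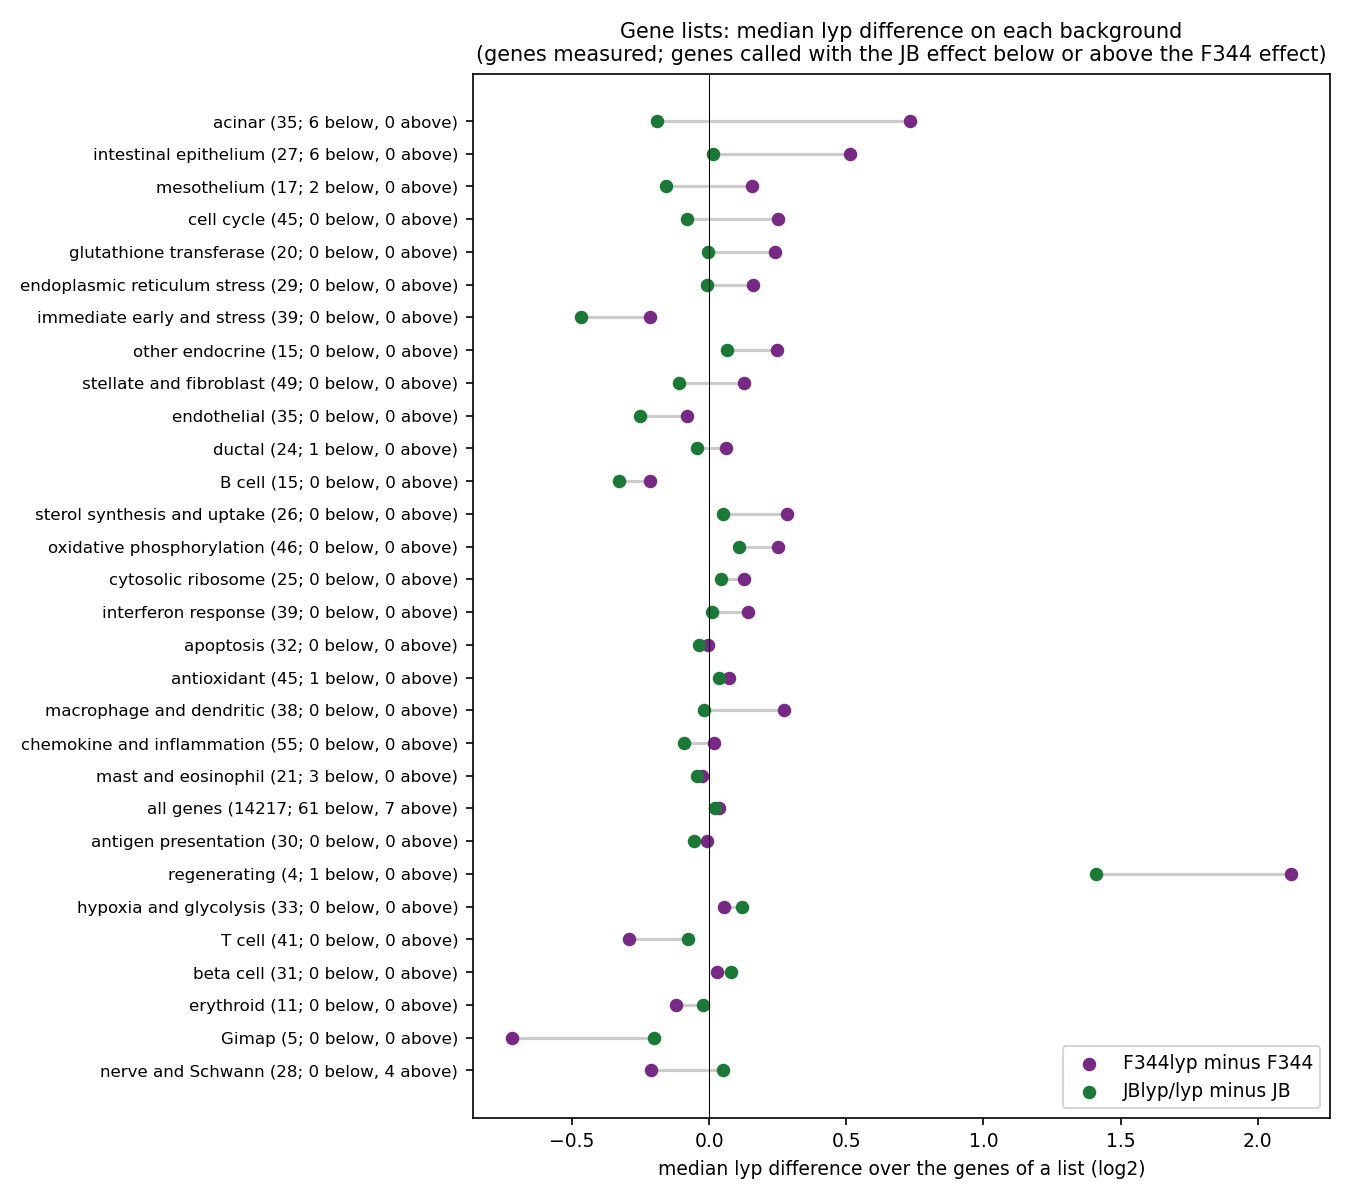
Median lyp log2 difference over the genes of each list, in JB (green) and in F344 (purple), with the number of genes measured and called beside each name. The gap between the points is widest in the acinar and regenerating lists among those with a called gene, and the all-genes points lie at 0.02 and 0.04. In the regenerating list the 2 medians rest on partly different genes, and its median difference was -0.007.

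Further called genes rose in F344lyp as well, and what else they share was not tested. Tinag, a basement membrane glycoprotein, was at 2.66 and 2.56 in JB, 2.71 and 2.62 in JBlyp/lyp, 3.08 and 2.90 in F344, and 5.54 and 6.05 in F344lyp, a difference of -2.75 ± 0.25 (SE). 1810009J06Rikl gave -3.59 ± 0.19, from 7.68 and 7.63 in F344 to 10.71 and 10.93 in F344lyp. Muc1, a mucin of ducts and acini and the 1 called gene of 24 ductal ones, differed by -1.92 ± 0.24, with 7.40 and 7.45 in F344 and 8.87 and 9.12 in F344lyp. Named after their values were seen, the water channel Aqp8 (-2.66), the gap junction gene Gjb2 (-2.60), the prostaglandin receptor Ptger3 (-2.73), the creatine synthesis gene Gatm (-2.41), the steroid enzyme Hsd3b1 (-2.35), the prothrombin gene F2 (-2.25) and the oxidase Duox2 (-2.08) followed the same order of groups. A second probe set of Gatm gave 0.02, and a second of Ptger3 gave -1.08. In all, 10 called genes had 13 other probe sets, of which 10 had the same sign and 1, of Tmem97, was called.

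Among the genes called below 0, levels put F344lyp apart more than F344. In 60 of the 61 genes called below 0, both F344lyp arrays were above the other 6 arrays compared, and in 52 they were above all 8 others with DR+/+ included. These genes were picked by differences between the arrays compared, so such a gap is largely built in. Its share over all genes was not counted. The median level of the 61 was 5.07 in JB, 5.08 in JBlyp/lyp, 6.21 in F344, 8.03 in F344lyp and 5.16 in DR+/+. Over all genes the medians were 6.59, 6.62, 6.73, 6.85 and 6.55 in the same order. F344 exceeded JB in 50 of the 61, and the share of all genes where it did was not counted. For the 7 genes called above 0 the medians were 7.18, 7.40, 7.91, 6.81 and 7.31, F344 exceeded JB in 6, and both F344lyp arrays were below the other 6 in 2. By median, F344 stood between JB and F344lyp in the first set and above both in the second.

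In the wider set called for lyp in F344, genes higher in F344lyp tilted only slightly the same way in JB. Genes lower in F344lyp tilted more, the JB medians of both sets were near 0, and neither tilt was tested. Of the 225 genes higher in F344lyp (1.58% of all genes), 127 had a JB estimate above 0 (56.4%), against 54.6% of all genes, and their median was 1.12 in F344 and 0.05 in JB. Of the 45 lower (0.317%), 28 had a JB estimate below 0 (62.2%), against 45.4% of all genes, with medians of -0.95 and -0.08. The difference between the effects was called for 66 of these 270 genes, which are 1.9% of all genes.

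The calls leaned on the F344 arrays. Leaving out F344 replicate 1 left 23 called probe sets, F344 replicate 2 left 18, F344lyp replicate 1 left 37 and F344lyp replicate 2 left 19, while leaving out JB replicate 1 left 54 and JBlyp/lyp replicate 1 raised the number to 130. The 88 estimates kept their sign in each of these fits. With 2 arrays per group the depth of the comparison is limited: in simulated data the model recovered 22.8% of differences of 1 log2 unit, 93.6% of 2 and 0% of 0.5. The simulated arrays were independent, shared 1 spread per probe set in all groups, and carried each change in JBlyp/lyp. The real groups differed in spread and JB arrays resembled JBlyp/lyp arrays of the same number, so these shares are a rough guide.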

How the data were processed

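The deposited values are log2 intensities. The authors made them in GCOS with the RMA method, according to the submitters' processing notes, which name no version. Array medians lay between 5.39 and 5.44. Group and replicate came from the sample titles.

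A linear model with 1 mean per group over 10 arrays was fitted with limma 3.58.1 in R 4.3.3 (eBayes, two-sided, Benjamini-Hochberg over 31042 probe sets, called at an adjusted p under 0.05, no filter). Residual degrees of freedom were 5, with 4.72 from the prior. An SE is the moderated one of the fit. Symbols came from the platform annotation: 20826 probe sets have 1 symbol, 436 several and 9780 none, and a gene is its brightest probe set over all arrays. In 5 simulated runs, with independent arrays and 1 spread per probe set in all groups, 6.56% of calls were false. Figures used matplotlib 3.10.9 in Python 3.11.15.

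The rule for named genes took, among called genes with non-overlapping pairwise differences, the 6 largest of each sign in each class (with the effect on the other background under 0.25 of the called one, uncharacterised loci passed over), up to 4 called members of each of 29 lists, every Gimap gene, and Ins1, Ins2, Gcg, Sst and Ppy. The comparison, its members and the lists were chosen with earlier results of these data known, so lists carry counts and medians and no test. Alternatives are in the closing section.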

Additional observations from a re-analysis of the deposited data

Results flagged for a closer look

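Among the named genes, 24 had lyp effects that differed between the JB and F344 backgrounds by the limma test of the difference itself, and each is given as the JB effect minus the F344 effect on the log2 scale. The JB effect lay below the F344 effect for Reg3g (-3.65), 1810009J06Rikl (-3.59), Lypd8 (-3.52), Si (-2.93), Ptf1a (-2.79), Tinag (-2.75), Cth (-2.69), Ang (-2.57), Cuzd1 (-2.50), Mcpt1l1 (-2.49), Cma1 (-2.40), Lgals4 (-2.32), Tff2 (-2.29), Upk1b (-2.11), Cpa3 (-2.08), Lrrn4 (-2.07), Ggt1 (-2.02), Muc1 (-1.92) and Apoa1 (-1.87). It lay above the F344 effect for Nefm (1.31), Tgm3 (1.42), Prph (1.52), Gap43 (1.54) and Vip (2.05). The acinar marker level and the Gapdh gap differed between the same groups, and their part in single genes was not tested beyond the covariate fits.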

How the results depend on the processing

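Against 88 calls (79 below 0, 9 above), 1 for lyp in JB, 468 for lyp in F344, 84 in F344 alone, 0 in JB alone, 0 opposite and 68 genes, requantiling, median centring, the intensity trend and array weights left the number of calls within 1.5 times. The 88 estimates kept their sign in each fit that tested them all, but for 2 with DR+/+ in place of JB, and 58 of the 58 tested did among the brighter probe sets. With DR+/+ in place of JB there were 6131 calls (3074 below, 3057 above), 9949 for lyp, 161 in F344 alone, 5347 in the BB pair alone, 121 opposite and 3485 genes; that pair differs in strain as well. The Gapdh gap as a covariate left 7 (7 below, 0 above; 859 and 595 unadjusted), 0 for lyp in JB (670 unadjusted), 123 in F344, 7 in F344 alone and 6 genes, while the median size of the 88 estimates went from 2.04 to 1.91. The acinar level as a covariate left 0 (0 below, 0 above; 1790 and 2587 unadjusted), 5 for lyp in JB, 2 in F344, 0 in F344 alone and 0 genes. The brighter probe sets alone gave 50 (45 below, 5 above), 265 for lyp in F344, 49 in F344 alone and 39 genes. The 8 arrays alone gave 60 (5 above, 0 for lyp in JB with 1853 unadjusted). The intensity trend gave 3 for lyp in JB and 1 in JB alone, and array weights 0 (1021 unadjusted) for lyp in JB and 2160 in F344. The replicate number as a block over all arrays gave 121 calls, 5 for lyp in JB, 745 in F344 and 1 in JB alone. Differences between same-numbered arrays correlated at 0.65 between JB and JBlyp/lyp and at 0.03 between F344 and F344lyp, with 0.20 to 0.24 in the 4 pairs across backgrounds, and since not every pair exceeded 0.1 the numbers were taken as shared numbers only. The block within the JB arrays, chosen after seeing the data, gave 423 (323 below, 100 above), 104 for lyp in JB, 2433 in F344, 378, 23 and 4 by class, and 259 genes. Leaving out 1 array in turn gave 18 to 130 calls, 18 to 107 below, 0 to 23 above, 0 to 4 for lyp in JB, 58 to 823 in F344, 18 to 122 in F344 alone, 0 to 1 in JB alone and 14 to 92 genes; an arm left with 1 array is assumed to vary like the others. Uncalled estimates changed sign for Gcg with the Gapdh covariate (-0.0686), for Ppy (1.755) and Gimap6 (-0.681) with the acinar covariate, and with DR+/+ for Ppy (1.779), Gimap4 (-0.270), Gimap6 (-1.13), Gimap5 (-1.584), Gimap7 (-1.009) and Gimap1 (-1.402). Without 1 array they ran from -0.791 to 0.235 for Ppy (reversed without JBlyp/lyp replicate 2), from -0.0800 to 0.293 for Gcg (without JBlyp/lyp replicate 1 or F344lyp replicate 1), from -0.117 to 0.336 for Gimap4 (without JB replicate 2, JBlyp/lyp replicate 1 or F344lyp replicate 2), from -0.00880 to 0.419 for Gimap6 (without JB replicate 1), and from -0.316 to 0.777 for Gimap5 and -0.0116 to 0.742 for Gimap7 (both without JB replicate 2). The causes were not tested, and the small number of arrays limits the precision.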
